A study of Danio rerio with 6 samples.

Results

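The genes described here encode much of the nuclear part of the oxidative phosphorylation system in zebrafish (Danio rerio). They were taken from the deposited count table by gene symbol, as every symbol that starts, ignoring case, with ndufa, ndufb, ndufc, ndufs, ndufv, sdh, uqcr, cox4, cox5, cox6, cox7, cox8 or atp5. The rule found 108 of 32520 genes. They are 38 genes of complex I, 5 of complex II, 8 of complex III, 25 of complex IV and 18 of complex V (the ATP synthase), with 8 complex I assembly factors, 4 complex II assembly factors and 2 genes of the ATP synthase inhibitor. Genes of the NDUFA4 family carry a complex I prefix but were counted with complex IV, of which NDUFA4 is a subunit in mammals. Nuclear genes with other symbols are left out, such as CYC1 of complex III, which is counted below with electron carrier and assembly genes. The study compared heads of slbp1-/- mutant embryos, of the line called rw440 in the titles, with heads of wildtype siblings, all at 2 days post fertilization. Each group had 3 libraries of total RNA. The gene slbp1 encodes a stem-loop binding protein, which acts on histone mRNA. The row named slbp (ENSDARG00000100558) had 179, 144 and 182 CPM in mutants against 97.6, 104 and 86.8 CPM in siblings, above the siblings in every mutant, and as the lesion is not described this level does not check the genotype. The labels do not describe the lesion, and they do not say whether replicates are separate clutches or how many heads were pooled. P-values here cover the spread of these samples alone, and part of that spread may be technical.

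Oxidative phosphorylation takes place in the inner mitochondrial membrane. Complexes I and II pass electrons from NADH and succinate to ubiquinone, complex III passes them on to cytochrome c, and complex IV, cytochrome c oxidase, hands them to oxygen. Complexes I, III and IV pump protons, and complex V uses the proton gradient to make ATP. Most subunits are encoded in the nucleus and imported, and the core membrane subunits of complexes I, III, IV and V are encoded by mitochondrial DNA. Neurons, photoreceptors and muscle depend on this system for ATP. Several complex IV subunits have tissue isoforms in mammals, among them COX6A2 and COX7A1 of heart and skeletal muscle, while no symbol found by the rule marks a neural isoform.

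Total counts ran from 3421961 to 5395071 per library, and values below are CPM, counts scaled to a common library size with TMM factors. At this depth 3 counts correspond to between 0.517 and 0.772 CPM. Mutant replicate 3 differed most from its group and had the lowest TMM factor, 0.789, against 0.959 and 0.997 in the other mutants and 1.04 to 1.14 in siblings. Calls on members that were lost without it are named below. The choice of scaling also matters: with total counts alone, without TMM factors, the median log2 change of all genes moved from 0.00 to -0.26. Changes of the members are therefore read relative to the median of all genes. Markers of neurons were found in the tissue labelled head, with 33 of 35 genes of a neuron and synapse list at testable levels.

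Few transcripts of the respiratory complexes differed between mutant and sibling heads by the test, and the calls were in 1 direction. Of 98 members with enough counts to test, 16 were called higher in mutants, 0 lower and 82 were not called by edgeR's quasi-likelihood test (adjusted p under 0.05 over all genes tested). Higher calls made up 16.3% of tested members against 12.9% of all 15561 genes tested, so the share is close to the background. Lower calls made up 0% against 12.8%. At an unadjusted p under 0.05, 26 members were higher and 1 was lower, or 27 of 98 in either direction. Of all 15561 genes tested, 5955 passed that cutoff, a larger share than that of the members. DESeq2 called 16 higher and 0 lower, and limma-voom 13 and 0. In either direction 25.7% of all genes were called.

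The median log2 change of the tested members was 0.29, a 1.23-fold higher level in mutants, against 0.00 for all genes tested. Of the 98, 84 had a positive and 14 a negative log2 change. Large changes were rare: 2 of 98 (2.04%) had a log2 change of 1 or more in size, against 20.1% of all genes tested. The mutants lay wholly above the siblings for 25 tested members and wholly below for 1, while 21.8% of all genes lay wholly above and 21.8% wholly below. A single tested member, a COX5B copy described below, reached the count filter through the mutants alone. It is counted among the 16 called higher and the 25 wholly above.

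The size of this shift depended on scaling and on single libraries. With total counts alone 2 members were called higher and 1 lower, where 7.04% of all genes were called higher and 18% lower. The members' median was then 0.01, while the distance from the median of all genes stayed at 0.27 (it was 0.29 with TMM). Without mutant replicate 3 that distance dropped to 0.07, and 9 members were called higher and 1 lower. Of all genes, 10.9% were then called higher. Without mutant replicate 2 the distance was 0.43, with 20 members called higher, where 11.9% of all genes were called higher. Higher calls numbered 8 without mutant replicate 1, and 4, 7 and 6 without sibling replicates 1, 2 and 3, where 9.81%, 8.36%, 9.91% and 9.13% of all genes were called higher. Of the 16 calls, that on atp5if1a held in all 15 other fits. The COX5B copy was also called in each, but it was tested through the mutants alone, so its calls are no sign of stability.

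**Figure D1:**
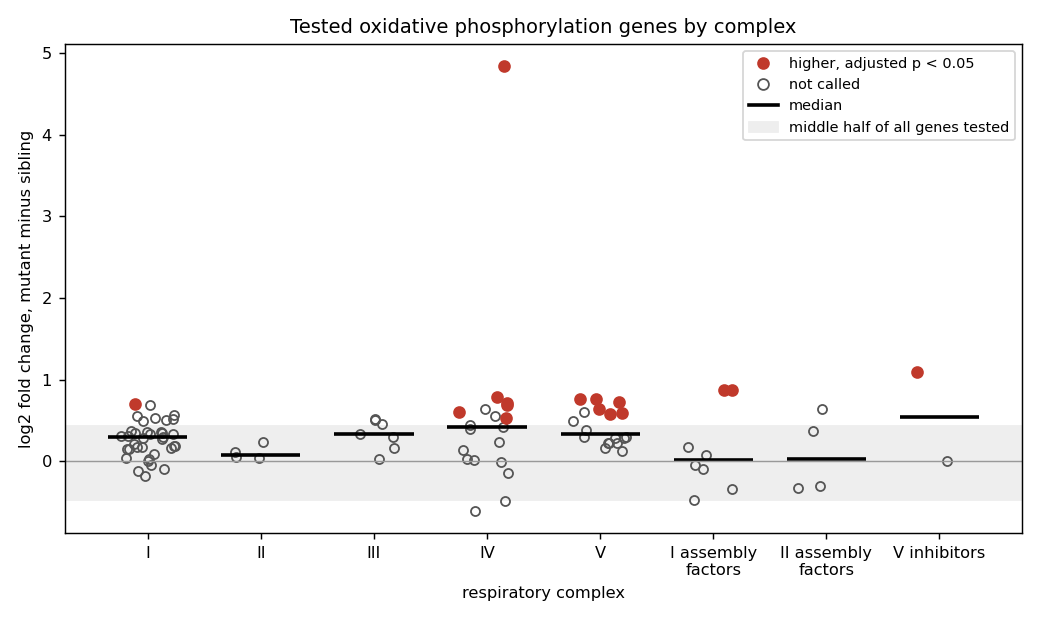
Log2 fold change (mutant minus sibling, vertical axis) of each tested member by complex, with members called higher filled in red, those not called open, the median as a bar, and the interquartile range of all genes tested as a grey band from -0.48 to 0.43. Medians of complexes I to V lie between 0.08 and 0.42, beside 0.00 for all genes tested. With total counts alone those of complexes I and II were 0.00 and -0.21, beside -0.26 for all genes tested. Without mutant replicate 3 the medians of complexes I to V were 0.06, -0.03, 0.18, 0.06 and 0.21.

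Across libraries, the members' levels were highest in mutant replicate 3. Summed over all 108 members, the level was 11157, 9654 and 15848 CPM in mutant replicates 1 to 3 and 8726, 9670.0 and 9594 CPM in the siblings. Mutant replicate 3 was the highest of all libraries, mutant replicate 1 next, and mutant replicate 2 lay within the range of the siblings. As a share of each library's raw counts, the members held 1.07, 0.963 and 1.25% in mutants and 0.991, 1.002 and 1.08% in siblings, so on that scale the groups overlapped as well. Of the 98 tested members, 77 had their highest CPM in mutant replicate 3, or 41 with total counts alone.

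Other gene lists stood apart in the same library. Cytosolic ribosomal protein genes, a list chosen after values were seen, had a median log2 deviation from each gene's mean over the 6 libraries of 0.81 in mutant replicate 3, against 0.08 and -0.06 in the other mutants. The members stood at 0.50, 0.08 and -0.18 in the same libraries. Neuron and synapse genes stood at -1.19, -0.46 and -0.39, so this library was also the lowest in neuronal transcripts. The part of these differences in the members' values was not tested.

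**Figure D2:**
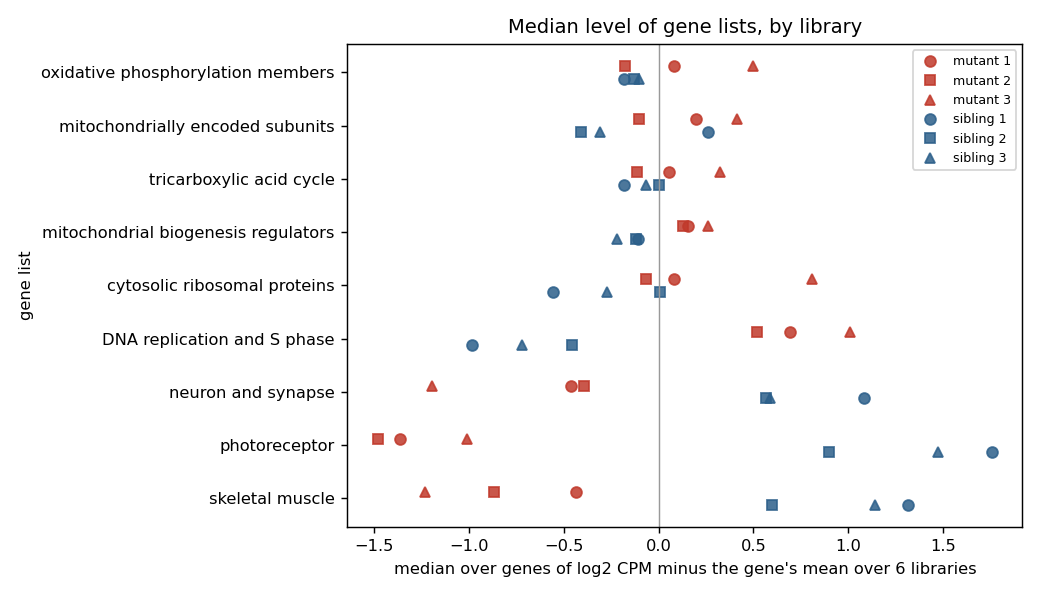
Median over the genes of each list of log2 CPM minus the gene's mean over 6 libraries (horizontal axis), for 3 mutant (red) and 3 sibling (blue) libraries. The oxidative phosphorylation members spread from -0.18 to 0.50 with mutant replicate 3 alone far to the right, while the photoreceptor, neuron and muscle lists separate the groups.

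Complex I, the NADH dehydrogenase, had few calls: 1 of 36 tested genes was called higher and 0 lower by edgeR, DESeq2 and limma-voom. By edgeR that is 2.78% higher and 0% lower, against 12.9% and 12.8% of all genes. At an unadjusted p under 0.05, 5 were higher and 0 lower, beside 5955 of all 15561 genes tested in either direction. The count of calls was the same without mutant replicate 3, and the median log2 change was 0.29, or 0.06 without that library. The core subunit NDUFV1, which carries the flavin that takes up electrons from NADH, had 167, 129 and 232 CPM in mutant replicates 1 to 3 and 164, 162 and 171 CPM in siblings. Its mutant values enclose the sibling values, and the log2 change was 0.09 ± 0.20 (SE). All 6 tested core subunits had overlapping groups and were not called by any of these tools.

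The call in complex I was NDUFB7, an accessory subunit of the membrane arm. It had 66.6, 46.1 and 65.1 CPM in mutant replicates 1 to 3 and 31.1, 37.4 and 40.6 CPM in siblings. All mutants lay above all siblings, by 1.62-fold, with a log2 change of 0.70 ± 0.19 (SE) and an edgeR adjusted p of 0.0179. The call was lost with total counts alone (adjusted p = 0.139) and without mutant replicate 1 or sibling replicate 1 or 2. The acyl carrier protein genes NDUFAB1 and ndufab1b, which serve complex I and mitochondrial fatty acid synthesis, had log2 changes of -0.12 and -0.10, and NDUFA9 and ndufa9b of 0.28 and 0.70, all 4 not called. The other tested subunits had log2 changes from -0.19 (NDUFB10) to 0.57 (ndufc1), genes named as the ends of that range after their values were seen.

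Complex I assembly factors, which build the complex but do not stay in it, were split. NDUFAF3 had 53.9, 48.8 and 102 CPM in mutant replicates 1 to 3 and 43.2, 30.6 and 38.1 CPM in siblings. The mutants lay above the siblings, but mutant replicate 3 was far above the other mutants. The log2 change was 0.87 ± 0.26 (SE, edgeR adjusted p = 0.0295), and the adjusted p was 0.0875 without mutant replicate 3, 0.109 with total counts alone, and 0.05 or more when any 1 sibling library was left out. NDUFAF7, a mitochondrial methyltransferase in human cells, had 10.8, 10.4 and 12.7 CPM in mutant replicates 1 to 3 and 6.43, 5.14 and 6.89 CPM in siblings, with groups that did not overlap. Its log2 change was 0.88 ± 0.28 (edgeR adjusted p = 0.0381), and the call was lost without any 1 of the 6 libraries, without a count filter, with DESeq2 and with total counts alone. The other 6 assembly factors had log2 changes from -0.47 (NDUFAF4) to 0.18 (NDUFAF2) and were not called.

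Complex II, succinate dehydrogenase, is the only complex with all its subunits encoded in the nucleus, and also an enzyme of the tricarboxylic acid cycle. None of its 4 tested genes was called by edgeR, DESeq2 or limma-voom, and 0 had an unadjusted p under 0.05. Of all genes, edgeR called 12.9% higher and 12.8% lower. The catalytic subunit gene SDHA had 163, 142 and 209 CPM in mutant replicates 1 to 3 and 151, 160.2 and 165 CPM in siblings. The sibling values lie inside the range of the mutants, and the log2 change was 0.11 ± 0.17 (SE). The iron-sulfur subunit gene SDHB had a log2 change of 0.24 ± 0.19, and the membrane anchor genes SDHC and SDHD (ENSDARG00000030139) had 0.03 and 0.05. The 4 complex II assembly factors were not called by any of these tools either, with log2 changes from -0.33 to 0.63 and 0 at an unadjusted p under 0.05.

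Complex III, the cytochrome bc1 complex, likewise had 0 of 7 tested genes called by edgeR, DESeq2 or limma-voom. By edgeR, 12.9% of all genes were called higher and 12.8% lower. At an unadjusted p under 0.05, 2 genes of complex III were higher, beside 5955 of all 15561 genes tested in either direction. The Rieske iron-sulfur protein gene UQCRFS1 had 200.4, 143 and 236 CPM in mutant replicates 1 to 3 and 137, 164 and 172 CPM in siblings. Groups overlapped, with a log2 change of 0.29 ± 0.19 (SE). The core protein genes UQCRC1 and UQCRC2 had log2 changes of 0.16 ± 0.17 and 0.03 ± 0.17, and the second UQCRC2 copy, uqcrc2a, of 0.34 ± 0.19. All 7 log2 changes were positive, with a median of 0.34, beside 0.00 for all genes. With total counts alone the median was 0.06, beside -0.26 for all genes, and without mutant replicate 3 it was 0.18.

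Complex IV had 6 of 19 tested genes called higher (31.6%, against 12.9% of all genes) and 0 lower (against 12.8%) by edgeR. At an unadjusted p under 0.05, 1 was lower. The 6 include a COX5B copy, described below, that was tested through the mutants alone. DESeq2 called 6 higher and limma-voom 4, with 0 lower by either. Without mutant replicate 3 the calls were 3 higher and 1 lower, where 10.9% of all genes were called higher. The share of all genes called lower was 7.11% to 11.1% over the fits that left out 1 library. With total counts alone the calls were 1 and 1, where 7.04% of all genes were called higher and 18% lower. The higher call with total counts alone was on the COX5B copy described next. The largest change of any member was in a COX5B copy (ENSDARG00000068738), whose subunit binds zinc on the matrix side of the complex. It had 11.3, 5.90 and 7.52 CPM in mutant replicates 1 to 3 and 0, 0.551 and 0.172 CPM in siblings. These are 107 counts over the mutant libraries and 4 over the siblings, each mutant library well above each sibling. The ratio of pooled CPM was 31.1, with a 95% exact interval from 11.8 to 116 that covers counting error only. The fitted log2 change was 4.84 ± 0.64 (SE, edgeR adjusted p = 0.000233). No sibling library reached the level of the count filter, so the gene was tested through the mutants alone, and its p-value and its calls in other fits are a description only.

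The other COX5B copies were not called. COX5B (ENSDARG00000015978) had 341, 283 and 522 CPM in mutant replicates 1 to 3 and 255, 288 and 301 CPM in siblings. Sibling and mutant values overlapped, at a log2 change of 0.44 ± 0.22 (SE) that was not called. The third copy (ENSDARG00000113254) was not tested and had 1.17 to 1.59 CPM in mutants and 1.54 to 2.75 CPM in siblings. How reads that fit several copies were counted is not given in the sources used here, so values of single copies are uncertain.

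Among the other calls, COX5A (ENSDARG00000099663), a matrix-side subunit, had 121, 98.7 and 187 CPM in mutant replicates 1 to 3 and 77.2, 78.4 and 80.4 CPM in siblings. The 3 siblings lay close together and all below the mutants, with a log2 change of 0.79 ± 0.21 (SE) and an edgeR adjusted p of 0.0154. The copy cox5aa had 125, 118 and 261 CPM in mutants against 107, 132 and 138 CPM in siblings, overlapping, and was not called at 0.42 ± 0.28. The small subunit gene cox6c had 72.1, 54.9 and 82.7 CPM in mutants against 38.4, 45.0 and 46.8 CPM in siblings, without overlap, a log2 change of 0.68 ± 0.18 and an adjusted p of 0.0163. NDUFA4 had 165, 169 and 248 CPM in mutant replicates 1 to 3 and 120.5, 141 and 141 CPM in siblings. Its mutants lay above its siblings, and it just passed the threshold at 0.53 ± 0.18 and an adjusted p of 0.0495. The small subunit gene cox7b, named after its values were seen, had overlapping groups and a log2 change of 0.61 ± 0.20 with an adjusted p of 0.0442. On total counts alone none of these 4 calls held (adjusted p of 0.0601 for COX5A, 0.120 for cox6c, 0.2497 for NDUFA4 and 0.268 for cox7b), and without mutant replicate 3 those on NDUFA4 (0.165) and cox7b (0.144) were lost. Both were also lost with upper quartile factors and with limma-voom, and NDUFA4 with a filter of at least 1 CPM in 3 libraries. Leaving out sibling replicate 1 ended all 4, sibling replicate 2 those on COX5A, NDUFA4 and cox7b, sibling replicate 3 those on COX5A and NDUFA4, and mutant replicate 1 those on cox6c, NDUFA4 and cox7b.

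Several complex IV genes are named after isoforms that are bound to certain tissues in mammals. The muscle and heart isoform gene cox7a1 had at most 1.36 CPM in any library and cox8b, a heart isoform in some mammals, at most 1.41 CPM, and neither was tested. The second COX6A row (ENSDARG00000054588), labelled COX6A1, had at most 1.38 CPM, and the files do not say whether it is the muscle form. A decrease of muscle isoforms was thus not detectable at this depth. Of 21 tested genes of a skeletal muscle list, 14 were called lower and 1 higher, beside 12.8% and 12.9% of all genes. The 1 higher, nebl, was tested through the mutants alone, as described below. In bulk heads, fewer cells of a type and less RNA per cell cannot be told apart. The ubiquitous partners cox6a1 and cox8a had log2 changes of 0.40 ± 0.18 and 0.24 ± 0.23 (SE) and were not called.

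The gene cox6b2, whose mammalian namesake is a testis isoform, had 169, 124 and 227 CPM in mutant replicates 1 to 3 and 101, 102 and 114 CPM in siblings. Mutants lay above siblings, with a log2 change of 0.71 ± 0.20 (SE) and an edgeR adjusted p of 0.0203, but 0.0548 without mutant replicate 3, 0.0915 with total counts alone and 0.05 or more when any 1 sibling library was left out. Its partner cox6b1 had 28.6, 32.7 and 82.9 CPM in mutants against 34.2, 45.5 and 50.3 CPM in siblings, overlapping, at 0.14 ± 0.38. COX4I1, the first subunit to join the catalytic core in human cells, had 119.8, 123 and 129 CPM in mutant replicates 1 to 3 and 135, 129.8 and 109 CPM in siblings. Its groups overlapped, at a log2 change of -0.01 ± 0.15. COX4I2, a lung and hypoxia isoform in mammals, had 11.5, 9.76 and 11.98 CPM in mutant replicates 1 to 3 and 18.5, 15.6 and 12.6 CPM in siblings. It was the only tested member with all mutants below all siblings, at -0.48 ± 0.26 and an adjusted p of 0.184, not called.

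The copy ndufa4b had lower values in most mutants. It had 13.6, 19.5 and 28.4 CPM in mutant replicates 1 to 3 and 31.1, 28.3 and 34.4 CPM in siblings. Only mutant replicate 3 reached the sibling range, and the log2 change was -0.61 ± 0.25 (SE, edgeR adjusted p = 0.0924). Without mutant replicate 3 it was called lower, at -0.91 (adjusted p = 0.0112), and with total counts alone at -0.91 (adjusted p = 0.0204). The hypoxia-linked paralogs NDUFA4L2 and ndufa4l2b were not tested, with at most 2.57 CPM for the first and no count for the second. The COX7A2 copies had log2 changes of -0.15 ± 0.22 (ENSDARG00000053217) and 0.64 ± 0.36 (ENSDARG00000110700), and COX7A2L, which in mammals links complexes III and IV, had 0.02 ± 0.28, all not called. The copy cox4i1l varied widely between replicates, with 0.691, 1.36 and 13.6 CPM in mutants against 0.772, 7.34 and 6.71 CPM in siblings.

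Complex V had 6 of 18 tested genes called higher (33.3%, against 12.9% of all genes) and 0 lower (against 12.8%). All 18 log2 changes were positive, between 0.13 and 0.77. DESeq2 called 7 higher and 0 lower, limma-voom 5 and 0. On total counts alone 0 were called, where 7.04% of all genes were called higher. The median of complex V was then 0.05 against 0.34 with TMM, and that of all genes -0.26 against 0.00. Summed over the complex, mutants had 5877, 5192 and 8460.4 CPM and siblings 4423, 4992 and 4888 CPM, the only summed complex without overlap, and as a share of raw counts the groups overlapped. Leaving out mutant replicate 3 gave 4 higher calls, where 10.9% of all genes were called higher.

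The 3 genes of the c-ring, the rotor that protons turn, were each called higher, beside 12.9% of all genes. The gene atp5mc3b had 509.9, 448 and 885 CPM in mutant replicates 1 to 3 and 340.0, 372 and 370.0 CPM in siblings. ATP5MC3 had 106, 92.1 and 115 CPM in mutants against 65.4, 78.7 and 63.9 CPM in siblings, and atp5mc1 had 139, 119.6 and 226 CPM in mutants against 95.5, 108 and 107 CPM in siblings. In each of the 3 genes all mutants lay above all siblings, as in 21.8% of all genes tested, and mutant replicate 3 was the highest. Their log2 changes were 0.77 ± 0.24, 0.59 ± 0.16 and 0.64 ± 0.21 (SE), with edgeR adjusted p of 0.0336, 0.0172 and 0.0428. All 3 calls were lost with total counts alone and without sibling replicate 1 or 3, and those on atp5mc3b and atp5mc1 also without mutant replicate 3 (0.0979 and 0.156) or sibling replicate 2. Those on ATP5MC3 and atp5mc1 were lost without mutant replicate 1 as well, and that on atp5mc1 with upper quartile factors and limma-voom.

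In the catalytic head, the alpha and beta subunit genes ATP5F1A and ATP5F1B were not called. ATP5F1A had 2153, 1923 and 3212 CPM in mutant replicates 1 to 3 and 1428, 1705 and 1646 CPM in siblings. Mutants lay above siblings, but the log2 change of 0.61 ± 0.24 (SE) had an edgeR adjusted p of 0.0794, and DESeq2 called it at 0.0195. ATP5F1B had 1192, 1097 and 1682 CPM in mutants against 1003, 1208 and 1180.3 CPM in siblings, overlapping, at 0.23 ± 0.22, and the central stalk gene ATP5F1C had a log2 change of 0.23 ± 0.20. The small epsilon subunit gene atp5f1e had 39.9, 38.8 and 51.4 CPM in mutant replicates 1 to 3 and 26.3, 23.9 and 26.7 CPM in siblings, without overlap, and was called at 0.76 ± 0.19 with an adjusted p of 0.00981, a call lost with total counts alone (0.0912) and in no other fit.

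ATP5PF, coupling factor 6 of the peripheral stalk that holds the head still, had 117, 113 and 133 CPM in mutant replicates 1 to 3 and 87.0, 83.7 and 70.9 CPM in siblings. Here the mutants lay above the siblings without mutant replicate 3 standing far off, and the log2 change was 0.58 ± 0.16 (SE, edgeR adjusted p = 0.0150), a call lost with total counts alone (0.154) and without sibling replicate 3. The small membrane subunit gene atp5md, named after its values were seen, had 26.3, 28.4 and 26.3 CPM in mutants against 17.2, 18.0 and 13.9 CPM in siblings. Its mutants were above its siblings and close together, at 0.72 ± 0.21 with an adjusted p of 0.0234. That call was lost with total counts alone (0.174) and without mutant replicate 1 or 2 or sibling replicate 1 or 3. The copies atp5mea and atp5meb of another small subunit had log2 changes of 0.13 ± 0.31 and 0.22 ± 0.21 and were not called.

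Of the ATP synthase inhibitor copies, atp5if1a was called higher and atp5if1b was not. Its protein, IF1, blocks the synthase from running backwards, and in zebrafish atp5if1a is known for its need in heme synthesis of red blood cells. The gene atp5if1a had 186, 183 and 271 CPM in mutant replicates 1 to 3 and 95.2, 94.5 and 110.4 CPM in siblings. Every mutant library exceeded every sibling library, also mutant replicates 1 and 2, which lie close together. Mean levels were 213 ± 49.7 CPM for mutants against 100.04 ± 8.95 CPM for siblings (SD, n = 3 each), a 2.13-fold difference with a log2 change of 1.09 ± 0.18 (SE) and an edgeR adjusted p of 0.00104. In all 15 other fits it was called higher, at log2 changes from 0.80 to 1.18 and adjusted p from 3.33e-06 to 0.00877. The copy atp5if1b had 31.3, 25.9 and 31.7 CPM in mutants against 30.9, 26.1 and 31.9 CPM in siblings. Its groups overlapped entirely, with a log2 change of 0.00 ± 0.19.

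**Figure D3:**
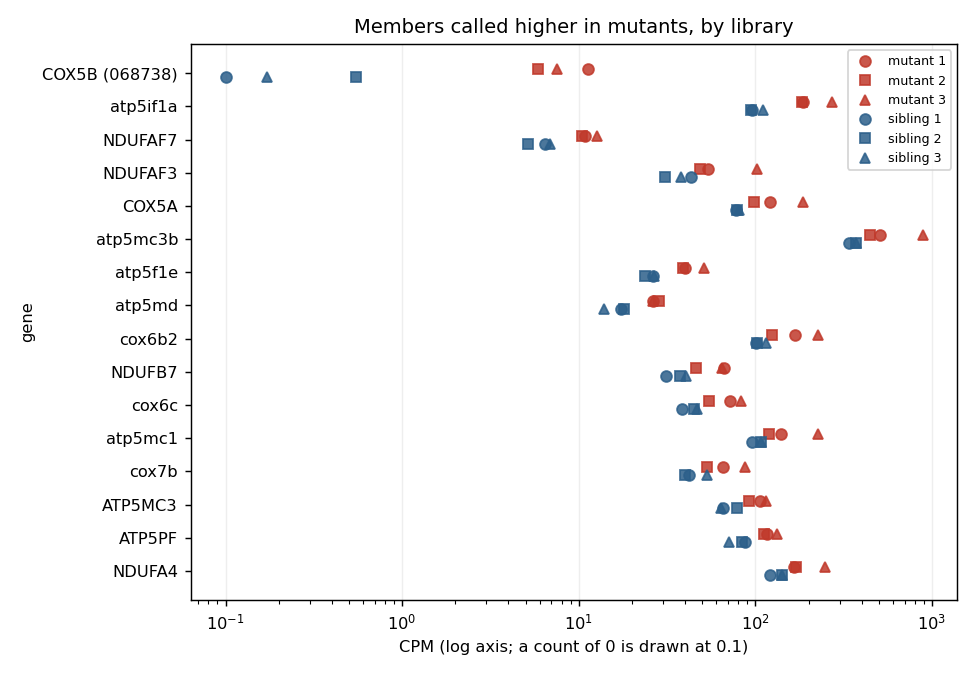
CPM on a log axis (a count of 0 drawn at 0.1) of the 16 members called higher, in 3 mutant (red) and 3 sibling (blue) libraries. Mutants lie above siblings for all but cox7b, and mutant replicate 3 (triangle) is often the highest. With total counts alone only atp5if1a and COX5B (ENSDARG00000068738) were called. This COX5B copy was tested through the mutants alone, so its call is a description only.

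Ratios of counts between copies or isoforms of 1 subunit within a library do not depend on library scaling, and 13 pairs with both genes tested were compared. With 3 against 3 libraries an exact two-sided permutation test cannot go below p = 0.1, so these ratios are given without a test. The ratio of atp5if1a to atp5if1b was 5.94, 7.09 and 8.54 in mutants and 3.08, 3.63 and 3.46 in siblings, or 2.12 times higher on average in mutants. That of NDUFA4 to ndufa4b was 12.2, 8.67 and 8.72 in mutants and 3.87, 5 and 4.09 in siblings, or 2.28 times higher. Neither ratio overlapped between groups, and in the second mutant replicate 3 was close to mutant replicate 2. Among single genes tested, 21.8% lay wholly above and 21.8% wholly below in mutants, so separation of 3 against 3 libraries was common. The share among ratios of other gene pairs was not computed.

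For COX4I2 to COX4I1 the ratio was 0.0962, 0.0796 and 0.0929 in mutants and 0.137, 0.120 and 0.116 in siblings, all mutants below all siblings. That of uqcrc2a to UQCRC2 was 1.48, 1.36 and 1.46 in mutants and 1.14, 1.201 and 1.13 in siblings, all mutants above, and that of COX7A2 (ENSDARG00000110700) to COX7A2 (ENSDARG00000053217) was 0.611, 0.765 and 0.933 in mutants and 0.25, 0.490 and 0.564 in siblings. None of these 3 ratios overlapped between the groups, and the last rests on low counts in sibling replicate 1. Such separation was common among single genes too (21.8% above and 21.8% below). The ratio of the COX5B copy ENSDARG00000068738 to ENSDARG00000015978 was 0.0144 to 0.0331 in mutants and at most 0.00191 in siblings. As the first copy was tested through the mutants alone, this pair was included only because mutants were high. Its separation is a description only. Ratios overlapped for cox6b2 to cox6b1, COX5A to cox5aa, ATP5MC3 to atp5mc3b, atp5mea to atp5meb, ndufab1b to NDUFAB1, ndufa9b to NDUFA9 and cox4i1l to COX4I1.

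**Figure D4:**
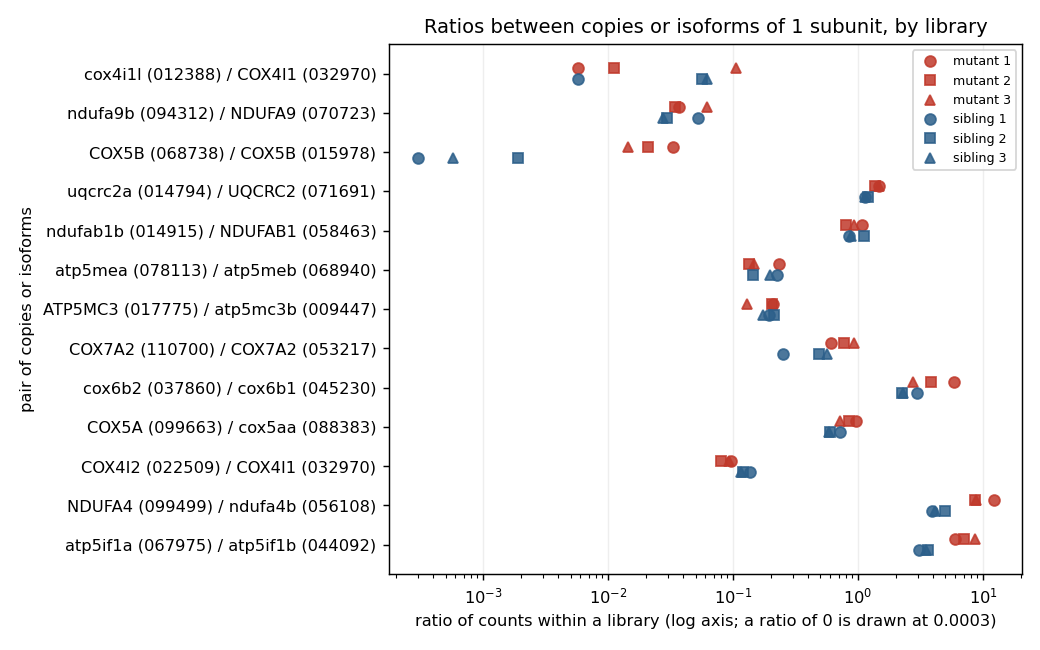
Ratio of counts between copies or isoforms of 1 subunit (log axis, a ratio of 0 drawn at 0.0003) in 3 mutant (red) and 3 sibling (blue) libraries, with the last 6 digits of each Ensembl identifier. The ratios atp5if1a to atp5if1b, NDUFA4 to ndufa4b and the first to the second COX5B copy lie higher in every mutant library than in every sibling library. The COX5B pair was included through the mutants alone, so its separation is a description only. Of all single genes tested, 21.8% lay wholly above and 21.8% wholly below in mutants.

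A few members could not be measured. Those not tested were 10 in number, and NDUFS1, a core complex I subunit, had no count in any library, NDUFB4 had 1 count in all and UQCRB 3. Every cell with working mitochondria uses these genes, so the counts do not show their absence. Of the SDHD copies, ENSDARG00000055712 had 8 counts in all. The cause of the missing counts was not tested.

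Transcripts encoded by mitochondrial DNA, which supply the other subunits, were also without a call: of 13 genes 0 were called by edgeR's quasi-likelihood test and by limma-voom, 2 were called higher by DESeq2, and 2 were higher at an unadjusted p under 0.05. Of all 15561 genes tested, 5955 had an unadjusted p under 0.05 by edgeR. The sum of the 13 genes was 5699, 5223 and 7948 CPM in mutants and 5309, 4114 and 4092 CPM in siblings. Mutant replicate 3 was the highest, and sibling replicate 1 lay above mutant replicate 2, so the groups overlapped. The median log2 change was 0.39, beside 0.00 for all genes. With total counts alone it was 0.11, beside -0.26 for all genes, and without mutant replicate 3 it was 0.24.

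**Figure D5:**
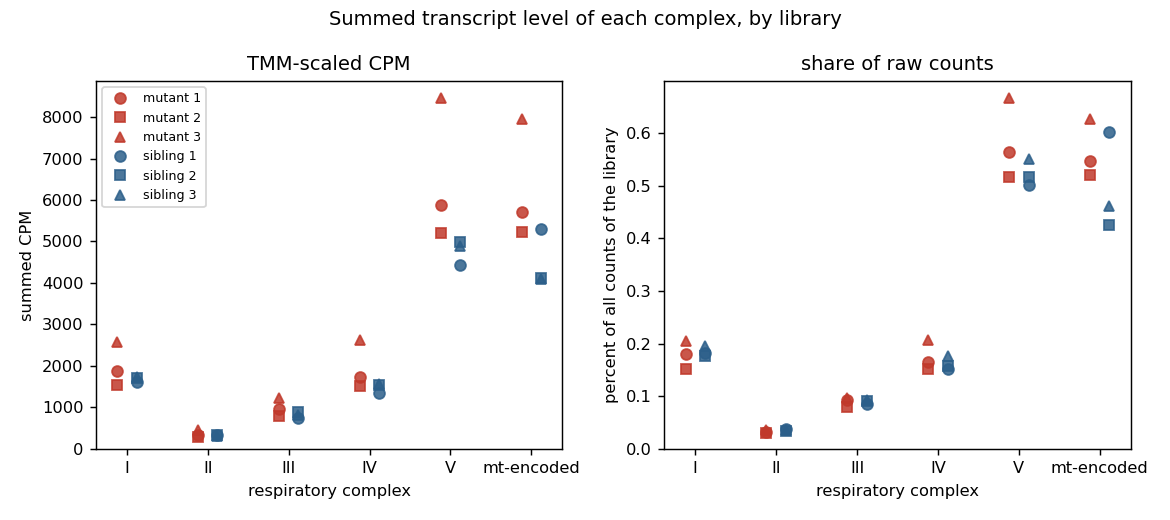
Summed level of the members of complexes I to V and of the 13 mitochondrially encoded genes in each library. Levels are TMM-scaled CPM (left) and percent of all raw counts (right). Mutant replicate 3 (red triangle) is the highest library in each sum on the left, where complex V alone separates the groups, and all sums overlap on the right.

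Other mitochondrial genes are read against 12.9% of all genes called higher and 12.8% lower. Of 34 tested electron carrier and assembly genes 1 was called higher and 0 lower, with a median log2 change of 0.24. The gene called was SURF1, which helps to insert heme into complex IV, with 13.4, 11.3 and 17.4 CPM in mutants against 4.12, 4.59 and 7.92 CPM in siblings and a log2 change of 1.32 ± 0.32 (SE, edgeR adjusted p = 0.0103). Of 20 tested tricarboxylic acid cycle genes 2 were called higher, near the share of all genes, and 0 lower, MDH1 by 1.02 ± 0.23 and OGDH (ENSDARG00000103428) by 0.67 ± 0.15, where MDH1 encodes the cytosolic form of malate dehydrogenase. On total counts alone that list had 1 higher and 1 lower, and both lists kept their counts without mutant replicate 3. Of 25 tested genes for mitochondrial ribosomal proteins, carriers, import and chaperones 3 were called higher, near the share of all genes, and 0 lower. DESeq2 and limma-voom each called 1 lower. Among the 3 higher was the ADP/ATP carrier gene SLC25A4, with 7.60, 9.08 and 23.3 CPM in mutants against 0.257, 0.918 and 0.344 CPM in siblings. Its mutant values were all above its sibling values, most of all in mutant replicate 3. As no sibling library reached the count filter level of 2.07 CPM, SLC25A4 was tested through the mutants alone. Its call is a description only. With total counts alone that list had 1 higher and 1 lower, and 2 and 1 when mutant replicate 3 was left out.

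Regulators of mitochondrial gene expression had 5 of 18 called higher (27.8%, against 12.9% of all genes) and 2 lower (11.1%, against 12.8%). TFAM, which packages and transcribes mitochondrial DNA, had 113, 111 and 123 CPM in mutant replicates 1 to 3 and 66.4, 71.4 and 64.4 CPM in siblings. The groups were well apart, at 0.78 ± 0.15 (SE, edgeR adjusted p = 0.00220). GABPA, a transcription factor that in mammals binds promoters of respiratory genes, had 188, 178 and 214 CPM in mutants against 94.5, 123 and 119.8 CPM in siblings, also apart, at 0.78 ± 0.16 with an adjusted p of 0.00392. The coactivator gene PPARGC1A had 2.53, 1.82 and 1.64 CPM in mutants against 12.4, 6.79 and 4.99 CPM in siblings. Its mutants were all below its siblings, at -1.97 ± 0.45 with an adjusted p of 0.00697. With total counts alone the list had 2 higher and 3 lower, and 4 and 1 when mutant replicate 3 was left out.

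Lists of the cell types with a high demand for ATP held many lower calls, beside 0 among the members. Of all genes tested, 12.8% were called lower and 12.9% higher. Tested genes called lower were 26 of 33 for neuron and synapse, 16 of 20 for photoreceptors, 14 of 21 for skeletal muscle and 3 of 5 for cardiac muscle, with median log2 changes of -1.46, -2.65, -1.91 and -1.76. A single skeletal muscle gene was called higher, nebl, named after its values were seen, with 9.22, 11.1 and 4.23 CPM in mutants against 0.257, 0.918 and 0.172 CPM in siblings. Its siblings were near the floor of 3 counts, and its log2 change was 4.08 ± 0.62 (SE, edgeR adjusted p = 0.000567). As no sibling library reached the count filter level of 2.07 CPM, nebl was tested through the mutants alone. Its p-value and call are a description only. Without mutant replicate 3 lower calls numbered 27, 17, 13 and 3 for the same 4 lists. DNA replication genes were called higher for 29 of 30. Glycolysis genes had 3 higher and 2 lower of 21 (14.3% and 9.52%), near the shares of all genes, with a median of -0.03. They had 1 higher and 2 lower with total counts alone or without mutant replicate 3. The lower gene eno2 is also counted in the neuron and synapse list. Summed over the muscle list, siblings had 262 to 477 CPM and mutants 89.5 to 144 CPM. For neuron and synapse genes the sums were 4239 to 5555 CPM and 1633 to 2814 CPM. The part of this difference in cell types in the members' values was not tested.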

How the data were processed

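Total RNA from 3 mutant and 3 sibling head samples was sequenced, and 1 table of counts per Ensembl gene was used. The values are raw whole-number counts as deposited by the authors, not normalized. HISAT2, featureCounts and the build GRCz11 are named, without versions, per the submitters' processing notes; which annotation, strand setting and multi-mapping rule applied is not given in the sources used here. A reference table gave a symbol for 29201 genes. Tests used edgeR 4.0.16 in R 4.3.3 (filterByExpr, TMM, robust quasi-likelihood test, two-sided, Benjamini-Hochberg over 15561 genes, threshold 0.05). SE is the log2 change divided by the square root of F. Alternatives were other size factors, filters, DESeq2 1.42.0, limma-voom (limma 3.58.1), a replicate block and leaving out each library. The procedure was tested on simulated data.

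Members and lists were chosen with earlier results of these data known. Lists were matched by symbol, or by an upper-case symbol shared by copies, and 2 mitochondrial ribosomal RNA genes were not matched. Named members are core subunits, isoforms and copies, up to 3 called members per complex and direction by lowest p, and called assembly factors, with 1 core subunit not reported here; for other lists, up to 3 called genes by lowest p. No adjusted p is over a list alone. Floors and intervals cover counting error only.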

Additional observations from a re-analysis of the deposited data

How the results depend on the processing

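With total counts alone 2 members were called higher and 1 lower, with a median log2 change of 0.00617, since the median of all genes moved too. Of those called higher, the COX5B copy (ENSDARG00000068738) was tested through the mutants alone. In that fit 7.04% of all genes were called higher and 18% lower. Leaving out 1 library gave 4 to 20 members called higher, 0 to 1 lower and a median of 0.06 to 0.41. In these fits 2519 to 3763 genes were called in all, with 8.36% to 11.9% of all genes higher and 7.11% to 11.1% lower. The fewest calls came without sibling replicate 1 and the lowest median without mutant replicate 3. With RLE or upper quartile factors, 2 other filters, DESeq2, limma-voom and scaling without the members, 13 to 16 were called higher and 0 lower. Of all genes, 9.58% to 13.1% were called higher and 9.03% to 13.8% lower in these fits. Restricting to subunits left 13 higher (15.5%, against 12.9% of all genes) and 0 lower of 84. The ratio of summed CPM, mutant over sibling, was 1.31 with TMM and 1.07 with total counts alone. With the replicate number as a block 22 of 98 members were higher and 1 lower. Of all genes, 16% were then called higher and 16.5% lower, 5065 genes in total. The labels state no pairing. The correlation of residuals between libraries with 1 number was 0.24, 0.09 and 0.18, and in every case the own number gave the highest value. How often this arises without pairing among 3 libraries per group was not computed, so it does not show pairing. Of 14 named members called and 2 named after their values were seen, 14 were not called in at least 1 alternative, and 0 changed sign. The 10 members not tested were all at or under 2.75 CPM in every library.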

Other observations

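Hypoxia target genes had 0 higher and 2 lower of 11 tested (18.2% lower), with a median log2 change of -0.27, against 12.8% of all genes called lower. Both lower calls were copies of 1 gene, NDRG1 (ENSDARG00000032849 and ENSDARG00000010420), and the other 9 tested genes were not called. The hypoxia list had 3 lower with total counts alone and 1 without mutant replicate 3. Epidermis and lens genes had 0 calls of 11 and 12 by edgeR, DESeq2 and limma-voom, with 2 and 0 lower at an unadjusted p under 0.05, and 3 epidermis genes were called lower with total counts alone and 1 without mutant replicate 3. Ionocyte genes had 0 calls of 3 by the same tools, with 1 lower at an unadjusted p under 0.05. POLG, the polymerase of mitochondrial DNA, was named after its values were seen and is among the 5 regulator genes of 18 called higher above. It had 23.7, 25.6 and 39.5 CPM in mutants against 14.2, 13.8 and 17.4 CPM in siblings. The log2 change was 0.97 ± 0.25 (SE, edgeR adjusted p = 0.0120). Of other genes that keep mitochondrial DNA in that list, TWNK was called higher (edgeR adjusted p = 0.0188). POLG2 and SSBP1 were not called (0.0865 and 0.259). All mutants lay above all siblings for POLG, and mutant replicate 3 was the highest.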
